A study of Homo sapiens with 19 samples.

Results

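Wide H3K18ac domains are the H3K18ac peaks of U2OS cells, an established human osteosarcoma line, that span 3000 bp or more. They were chosen by their width alone, counted as end minus start plus 1 in the list from cells given mock siRNA, and 1796 of 55080 H3K18ac peaks (3.26%) met the threshold. The series compared U2OS cells given EP400 siRNA with U2OS cells given mock siRNA against GFP, harvested 72 hr after transfection, and its title puts the question of H3.3 deposition by EP400 at regulatory elements during gene activation. Chromatin immunoprecipitation followed by sequencing (ChIP-seq) gave 1 peak list per antibody and condition for MED26, RNA polymerase II (Pol II), H3.3 and H2AZ, 1 list each for H3K18ac and H3K4me1 after mock siRNA, and 1 list from 3 EP400 immunoprecipitations, for which no siRNA is named. RNA-seq gave 1 library per condition. Every difference between conditions below therefore rests on 1 library a side, with no replicate check and no test, and the intervals given are Wilson 95% intervals that cover counting error only.

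Acetylation of histone H3 at lysine 18 is deposited mainly by the coactivators CBP and p300 and marks active promoters and enhancers. Long unbroken stretches of such acetylation are a known feature of strong enhancer clusters, where transcription factors, Mediator and Pol II gather, and of highly transcribed genes. H3K4me1 marks enhancers and the shoulders of promoters. MED26 is the subunit of Mediator that links it to elongation factors, and EP400 is the ATPase of the TIP60-EP400 complex, a remodeller whose substrates include nucleosomes with H2A.Z and H3.3.

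The promoters of 4 genes that lie wholly inside a domain are shown because in these loci the acetylated block covers the start, the body and the end of the gene. They are the 4 with the highest mock RNA level among such genes for which RefSeq gave a promoter. Each is the 250 bases before the annotated start in GRCh38.p14, read in the direction of the gene, and capitals mark matches to the motifs named below.
S100A6: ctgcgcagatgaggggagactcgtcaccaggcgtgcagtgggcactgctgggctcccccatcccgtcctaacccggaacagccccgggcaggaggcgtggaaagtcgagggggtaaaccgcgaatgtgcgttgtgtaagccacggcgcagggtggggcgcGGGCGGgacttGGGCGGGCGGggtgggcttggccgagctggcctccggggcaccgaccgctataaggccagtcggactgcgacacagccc
SFN: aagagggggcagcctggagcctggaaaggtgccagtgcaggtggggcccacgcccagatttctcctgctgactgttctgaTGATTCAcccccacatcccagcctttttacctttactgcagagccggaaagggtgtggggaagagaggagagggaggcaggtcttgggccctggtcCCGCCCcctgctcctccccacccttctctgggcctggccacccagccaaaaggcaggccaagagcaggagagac
ID1: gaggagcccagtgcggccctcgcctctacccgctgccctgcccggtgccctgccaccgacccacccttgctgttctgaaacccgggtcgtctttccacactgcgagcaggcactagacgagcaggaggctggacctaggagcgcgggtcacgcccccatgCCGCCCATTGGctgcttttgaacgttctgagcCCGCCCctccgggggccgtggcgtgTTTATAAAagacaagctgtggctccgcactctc
H1-2: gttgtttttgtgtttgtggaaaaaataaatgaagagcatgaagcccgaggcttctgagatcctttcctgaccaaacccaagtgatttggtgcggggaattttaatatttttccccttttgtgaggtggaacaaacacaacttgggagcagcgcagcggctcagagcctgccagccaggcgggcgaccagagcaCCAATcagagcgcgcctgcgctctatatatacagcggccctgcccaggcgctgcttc
The motifs were searched on both strands. They were the AP-1 motif, written TGANTCA, and the GC box, written GGGCGG. The TATA box was searched as TATAAA and the cyclic AMP response element (CRE) as TGACGTCA. The last pair were the CCAAT box, with these letters, and the E-box, searched as CACGTG. S100A6, a small calcium-binding protein, held 3 GC boxes, of which 2 overlap, and SFN, the 14-3-3 sigma protein, held 1 AP-1 match and 1 GC box. ID1, an inhibitor of basic helix-loop-helix transcription factors, held 2 GC boxes, a CCAAT box and overlapping TATA matches on both strands, and H1-2, a linker histone, held 1 CCAAT box.

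Over all measured genes with an end at a domain, a promoter was found for 234 of 299. An AP-1 match stood in 8.55% of these promoters (interval 5.60 to 12.8), against 4.70% of the promoters of other measured genes (4.28 to 5.16) and 7.76% of all 27305 promoters in the table. A CCAAT box stood in 29.9% (24.4 to 36.1), against 37.1% of other measured genes (36.1 to 38.1), and a GC box in 68.4%, against 71.5%. The shares for TATAAA were 8.55% at domains and 5.39% at other measured genes, for the CRE 1.71% and 3.43%, and for the E-box 10.7% and 10.3%. These are descriptions of letters in a window, and GC content was alike, with a median of 66.0% at domains and 65.7% at other measured genes.

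Of 485 miRNA hairpins that the RNA table places in a locus of their own, 36 lay at an H3K18ac peak and 6 (1.24%) lay wholly inside a domain. Of the 6, 3 share a domain with a protein-coding gene described below, namely MIR3193 with ID1, MIR219A1 with HSD17B8 and MIR21 with an end of VMP1. MIR21, which encodes an miRNA abundant in many tumour lines, lay in a domain of 3200 bp at chr17:57915501-57918700 (hg19). That domain held MED26 over 1200 bp after EP400 siRNA and 1500 bp after mock siRNA, H3.3 over 500 bp and 300 bp, and Pol II over 0 bp and 200 bp. The mature sequences of the arms from these 3 hairpins follow, from RefSeq with GRCh38.p14, with the seed (bases 2 to 8) in capitals; no seed is shared among them.
hsa-miR-21-5p: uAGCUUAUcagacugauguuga
hsa-miR-219a-5p: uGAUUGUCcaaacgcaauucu
hsa-miR-219a-1-3p: aGAGUUGAgucuggacgucccg
hsa-miR-3193: uCCUGCGUaggaucugaggagu

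The domains held 8.29 Mb, which is 21.1% of all bases under H3K18ac peaks, and their width ran from 3000 to 17200 bp with a median of 4000 bp and quartiles of 3400 and 5200 bp. There were 845 domains of 3000 to 3900 bp, 433 of 4000 to 4900 bp, 475 of 5000 to 9900 bp and 43 of 10000 bp or more. The threshold falls in a smooth run of widths, with 120 domains of exactly 3000 bp just inside it and 150 peaks of 2900 bp just outside. Chromosome 1 carried the most domains (194). The share of peaks that were domains was 4.61% on chromosome 17 and 5.20% on chromosome 22, and 1.34% on chromosome X.

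The domains lay away from gene ends more often than other H3K18ac peaks did. The RNA table gives loci without strand, so a gene end here is a window reaching 2 kb out and 2 kb in from the start or the end of a locus. Where a locus holds several genes, a gene start or end deeper inside it counts as interior, here and below. A gene end was overlapped by 309 domains (17.2%, interval 15.5 to 19.0), against 20.1% of peaks of 2000 to 2900 bp and 25.6% of all peaks under 3000 bp (25.2 to 26.0); over all 55080 peaks the share was 25.3%. The interior of a gene locus held 693 domains (38.6%, against 34.4% of all peaks), and 794 lay between loci (44.2%, against 40.3%). The domains between loci lay a median of 33578.5 bp from the nearest locus, and 146 of them lay more than 100 kb away.

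**Figure D1:**
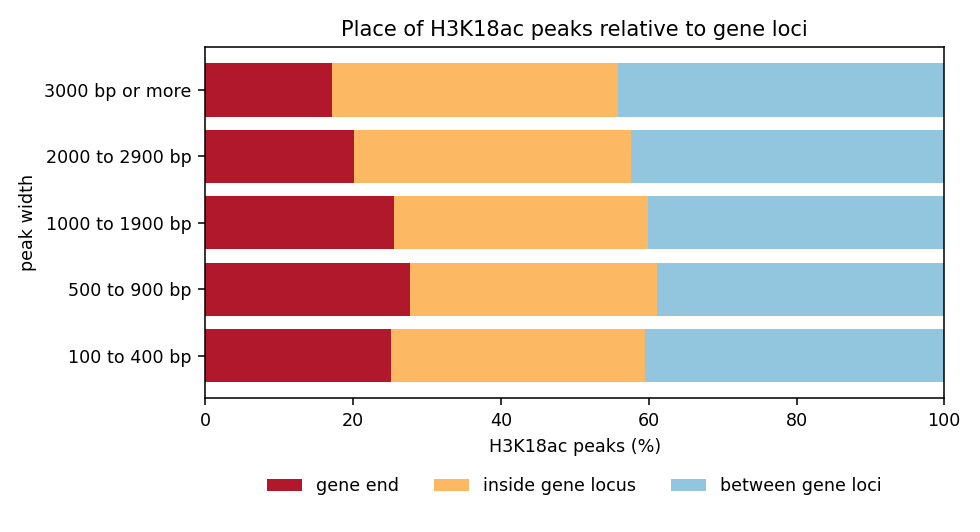
Share of H3K18ac peaks (%, horizontal axis) that overlap a gene end, lie inside a gene locus or lie between loci, by class of peak width (vertical axis, domains at the top). Gene ends take 17.2% of the domains, 20.1% of peaks of 2000 to 2900 bp and 25.6% of all peaks under 3000 bp.

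Domains lay near one another. Another domain was within 10 kb of 398 of them (22.2%), against 8.23% of narrower H3K18ac peaks. In all, 756 of 20173 gene loci (3.75%) held at least 1 domain, and 48 held 3 or more. The loci with a domain were long, with a median of 80.7 kb against 23.8 kb for all loci. A longer locus meets more peaks by its length alone, and loci with narrower H3K18ac peaks were not set beside these. The loci of TENM2, a teneurin of the cell surface, and KCNMA1, the pore subunit of a calcium-activated potassium channel, held 6 domains each. So did a locus of 5 genes, among them RBKS and BABAM2, a component of the BRCA1-A complex. Its domains were not assigned to single genes. RAD51B, a recombination protein, HIVEP3, a zinc finger transcription factor, and PRKCA, a protein kinase C, held 5 each. Together these 6 loci held 33 domains, all with H3K4me1. Pol II was in 0 of the 33 after EP400 siRNA and in 7 after mock siRNA, MED26 in 14 and 22, and H3.3 in 11 and 22. Among all 693 domains inside loci, mock cells had Pol II in 320, MED26 in 450 and H3.3 in 516. Of these carriers, 28.8% also had Pol II after EP400 siRNA, 76.0% MED26 and 31.0% H3.3. Whether the 6 loci differ from other loci was not tested.

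H3K4me1 was present at nearly all domains. It overlapped 1699 of 1796 domains (94.6%, interval 93.5 to 95.6), against 82.0% of peaks of 2000 to 2900 bp and 32.4% of all peaks under 3000 bp; over all H3K18ac peaks the share was 34.5%. Since a wide peak overlaps more by its length alone, the same was counted in the central 1 kb, the 1 kb around the middle of each peak. There H3K4me1 stood in 75.4% of domains, against 67.6% of peaks of 2000 to 2900 bp and 39.3% of peaks under 3000 bp. Peaks under 3000 bp have a median width of 400 bp. For those narrower than 1 kb this window holds the peak and some of its flanks, here and below. By length, H3K4me1 covered 34.5% of the domains and 7.37% of the 3 kb on either side. The mark was less frequent at domains on gene ends (81.6%) than inside loci (97.5%) or between them (97.1%), yet domains on gene ends carried it more often than peaks of 2000 to 2900 bp at the same places (53.4%).

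EP400 occupied small parts of some domains. An EP400 peak lay in 510 domains (28.4%, interval 26.4 to 30.5), against 19.8% of peaks of 2000 to 2900 bp, 7.17% of peaks under 3000 bp and 7.86% of all H3K18ac peaks. In the central 1 kb the order was not kept: 10.2% of domains (8.93 to 11.7), against 12.7% of peaks of 2000 to 2900 bp and 9.02% of peaks under 3000 bp. The 744 EP400 peaks in domains lay a median of 1000 bp from the domain's middle, 357 domains held 1 and 52 held 3 or more. By place, EP400 was at 42.1% of domains on gene ends, 28.0% inside loci and 23.4% between loci.

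Named loci held the 6 domains with most EP400 peaks. The largest number, 7, was in a domain of 5300 bp at the shared end of RCC1, the nucleotide exchange factor of the GTPase Ran, and SNHG3, a host of small nucleolar RNAs. The domain at TNFRSF12A, HCFC1R1 and THOC6 held 6. The domains at the nuclear noncoding RNA NEAT1, at ARID1A, a subunit of the BAF remodelling complex, in the septin gene SEPTIN9 and at an end of VMP1, an autophagy protein, held 5 each.

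MED26 was the factor most often present in the domains after EP400 siRNA. It overlapped 1078 domains (60.0%) after EP400 siRNA and 1270 (70.7%) after mock siRNA, against 21.9% and 27.3% of all H3K18ac peaks. In the central 1 kb it stood in 37.4% and 47.6% of domains, against 26.3% and 30.8% of peaks under 3000 bp. MED26 sat towards the middle of the domains: with each domain cut into 10 equal pieces, the 2 middle pieces were covered 3.58 times as much as the 2 outermost after EP400 siRNA and 3.41 times after mock siRNA. Its share grew with width, from 62.7% of domains of 3000 to 3900 bp to 90.5% of those of 7000 bp or more in mock cells.

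Pol II overlapped 323 domains (17.98%) after EP400 siRNA and 869 (48.4%) after mock siRNA, against 21.6% and 31.5% of all H3K18ac peaks. In mock cells, the central 1 kb of domains and of narrower peaks held it about equally often (33.0% and 34.2%). After EP400 siRNA it stood in the centre of 11.2% of domains, against 25.5% of narrower peaks. In mock cells Pol II was in 61.9% of domains with MED26 and in 15.8% of domains without it. By place, it stood in 52.8% of domains on gene ends after EP400 siRNA and 79.0% after mock siRNA, in 13.7% and 46.2% of those inside loci, and in 8.19% and 38.4% of those between loci.

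H3.3 overlapped 452 domains (25.2%) after EP400 siRNA and 1352 (75.3%) after mock siRNA, against 5.18% and 26.6% of all H3K18ac peaks. By length it covered 1.43% of the domains after EP400 siRNA, against 13.8% after mock siRNA. In mock cells the domains were covered 1.97 times as densely as the 3 kb on either side (13.8% and 7.02%). After EP400 siRNA the covered share was 1.43% in the domains and 1.30% in the flanks, a ratio of 1.10 to these adjacent flanks. Against sequence farther out, at 8 to 10 kb from the domain's middle, the level within 1 kb of the middle was 1.60 times as high after EP400 siRNA (1.37% and 0.855%) and 2.65 times after mock siRNA (13.6% and 5.15%). For MED26 the ratio to the adjacent flanks was 6.51 after EP400 siRNA and 6.85 after mock siRNA, and for Pol II it was 3.67 after EP400 siRNA and 4.51 after mock siRNA. H3.3 was not central like MED26: its middle pieces were covered 0.76 times as much as the outermost after EP400 siRNA and 0.89 times after mock siRNA.

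H2AZ was sparse in the domains. It overlapped 155 domains (8.63%) after EP400 siRNA and 657 (36.6%) after mock siRNA, against 15.3% and 32.3% of all H3K18ac peaks. In the central 1 kb it stood in 2.39% and 15.0% of domains, against 18.7% and 36.7% of peaks under 3000 bp. Domains on gene ends were also low in this window, with 3.56% and 20.1%, against 23.6% and 47.0% of peaks of 2000 to 2900 bp on gene ends.

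**Figure D2:**
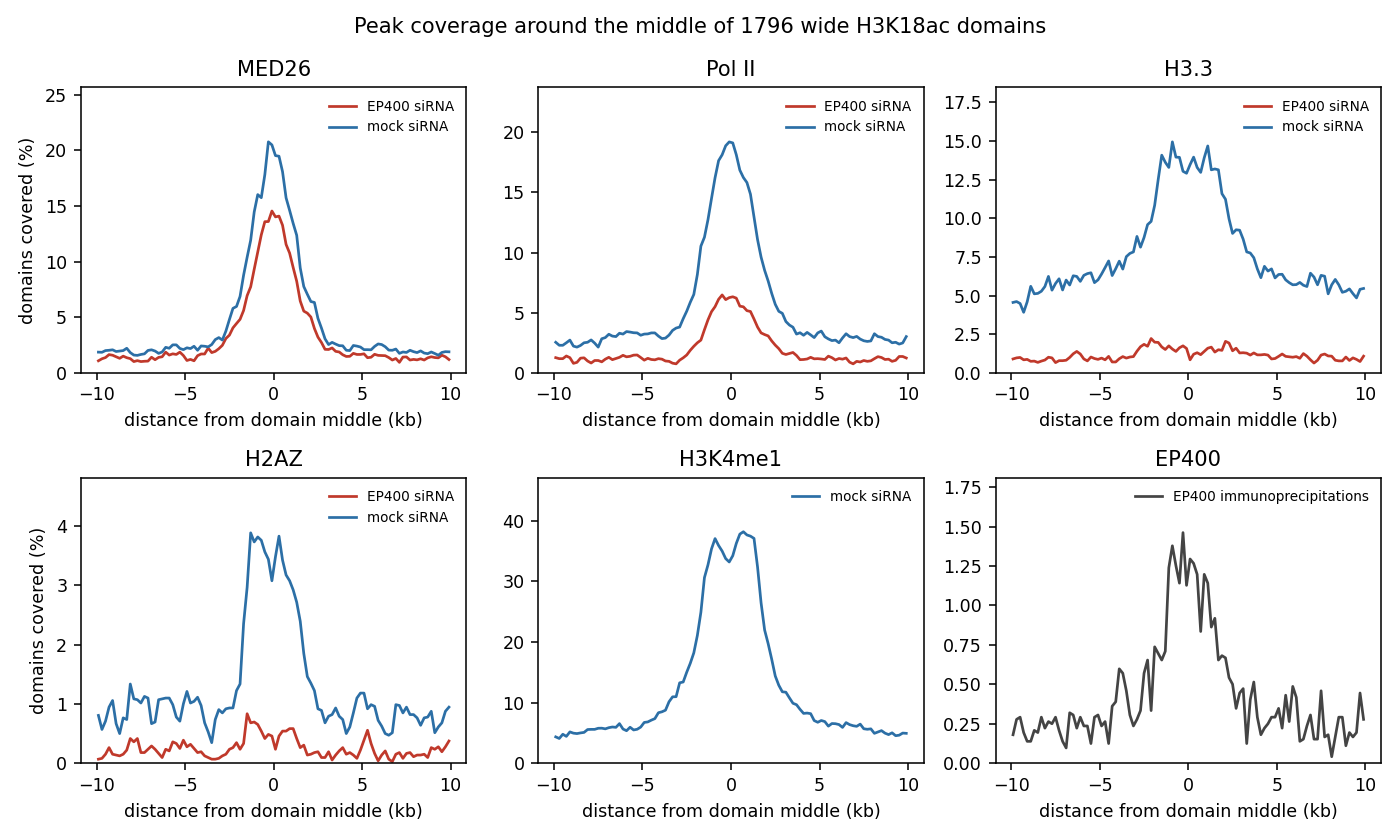
Share of the 1796 domains covered by a peak (%, vertical axis, a different range in each panel) at each distance from the domain's middle (kb, horizontal axis), for EP400 siRNA (red), mock siRNA (blue) and the EP400 immunoprecipitations (grey). MED26 and Pol II form a central hump in both conditions, while H3.3 is lower and flatter after EP400 siRNA, with 1.37% covered within 1 kb of the middle and 0.855% at 8 to 10 kb, against 13.6% and 5.15% after mock siRNA.

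Of domains that carried a factor in mock cells, the share that also carried it after EP400 siRNA differed between factors. It was 78.6% for MED26 (998 of 1270, interval 76.2 to 80.8), 36.7% for Pol II (319 of 869, 33.6 to 39.97), 27.4% for H3.3 (370 of 1352, 25.1 to 29.8) and 21% for H2AZ (138 of 657, 18.1 to 24.3). Over all H3K18ac peaks the same shares were 70.6%, 67.7%, 11.7% and 43.3%. With both lists of an antibody cut to the same number of widest peaks H2AZ was kept at 34.5% of domains, and with an overlap of 200 bp or more H3.3 was kept at 17.6%. Pol II and H2AZ were kept less often at domains than at H3K18ac peaks as a whole, but so were they at peaks of 2000 to 2900 bp, at 51.8% for Pol II and 32.2% for H2AZ. Just inside the threshold (3000 to 3200 bp) Pol II was kept at 45.9% and H2AZ at 24.4%, against 49.4% and 27.1% just outside it (2700 to 2900 bp).

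In windows of equal length, which reach past peaks narrower than 1 kb, the order of domains and narrower peaks depended on the set and place compared. In the central 1 kb MED26 was kept at 70.3% of domains, against 68.7% of peaks of 2000 to 2900 bp and 76.5% of all peaks under 3000 bp. By place, the centre of domains kept MED26 at 81.0% on gene ends, against 87.6% of peaks under 3000 bp, but at 67.8% inside loci, against 61.8%, and at 65.9% between loci, against 51.8%. Gene ends, where MED26 was kept most often, make up 25.6% of peaks under 3000 bp and 17.2% of domains. H3.3 was kept in the centre of 9.14% of domains, against 10.9% of peaks of 2000 to 2900 bp and 12.1% of all peaks under 3000 bp. On gene ends H3.3 was kept at 12.6% of domains, against 7.35% of peaks under 3000 bp, inside loci at 9.46% against 15.2%, and between loci at 7.14% against 13.4%. In that window Pol II was kept at 33.9% of domains, against 51.4% of peaks of 2000 to 2900 bp and 74.2% of peaks under 3000 bp, and H2AZ at 13.7%, against 28.4% and 47.1%.

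The lists after EP400 siRNA were shorter as a whole, which stands beside these shares. The bases covered after EP400 siRNA, over those after mock siRNA, came to 0.78 for the whole MED26 list, 0.61 for Pol II, 0.40 for H3.3 and 0.38 for H2AZ. Inside the domains these ratios were 0.70, 0.33, 0.10 and 0.16. The lists carry no depth, and the part of depth in these differences was not tested. A factor seen after EP400 siRNA alone was found in 80 domains for MED26, 82 for H3.3, 17 for H2AZ and 4 for Pol II.

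The share kept differed by place for Pol II. Among domains with mock Pol II, it was kept in 66.8% on gene ends (interval 60.7 to 72.4), 28.8% inside loci (24.1 to 33.9) and 20.98% between loci (16.8 to 25.9). Peaks of 2000 to 2900 bp gave 82.0%, 32.6% and 30.3% in the same places, with intervals of 77.9 to 85.5, 27.5 to 38.3 and 25.3 to 35.9. The share was lower at domains in each place. On gene ends the intervals of the domains and of these narrower peaks did not overlap. In the other places they did, which does not show that the shares there were alike, and no test was run. MED26 was kept in 90.9%, 76.0% and 74.5% of domains in these 3 places, against 90.8%, 61.3% and 61.5% of peaks of 2000 to 2900 bp. H3.3 had no such gradient, at 22.7%, 31.0% and 26.2%.

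Domains with an EP400 peak kept every factor more often than domains without one. Pol II was kept in 55.8% of domains with EP400 (interval 50.1 to 61.3), against 26.5% of those without (23.03 to 30.3), MED26 in 85.7% against 75.1%, H3.3 in 33.7% against 24.6% and H2AZ in 27.4% against 17.6%. Domains with EP400 were somewhat wider, with a median of 4300 bp against 4000 bp, and 42.1% of domains on gene ends held EP400. In the central 1 kb, the shares kept with and without EP400 were 49.6% and 23.8% for Pol II, 79.3% and 65.4% for MED26, 9.65% and 8.92% for H3.3 and 16.7% and 12.1% for H2AZ. The part of place in these differences was not tested.

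**Figure D3:**
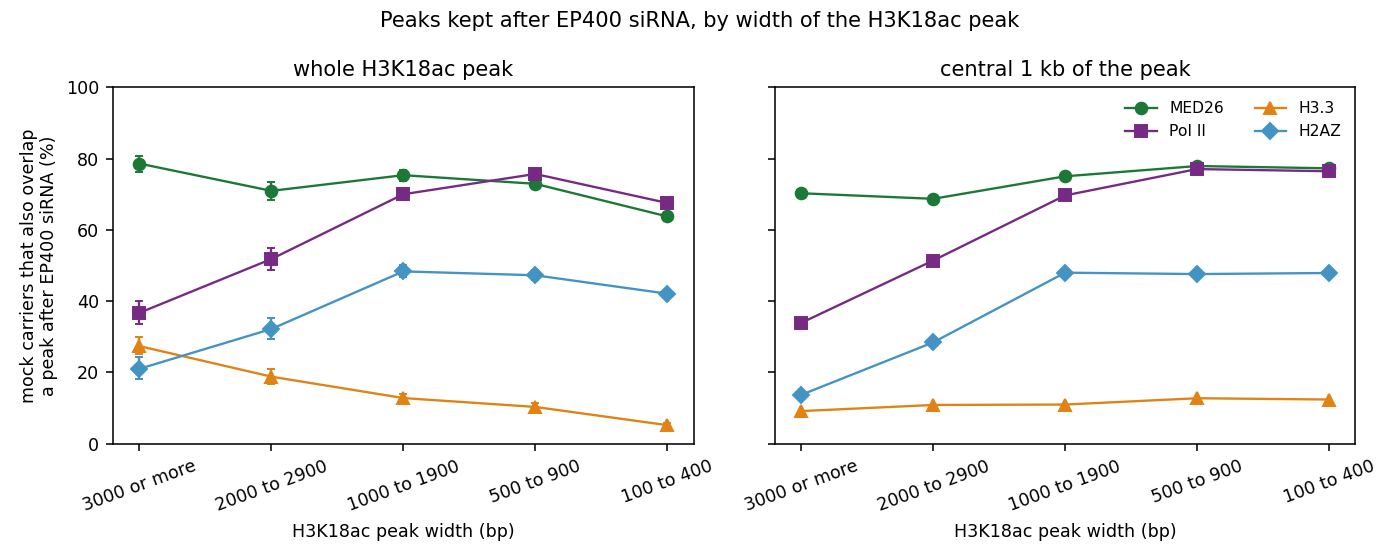
Share of H3K18ac peaks with a factor in mock cells that also overlap it after EP400 siRNA (%, vertical axis), by width of the H3K18ac peak (bp, horizontal axis, domains at the left), over the whole peak (left, with Wilson 95% intervals) and in its central 1 kb (right). Pol II lies at 36.7% in domains and 67.7% over all H3K18ac peaks, while H3.3 rises with width over the whole peak but stays at 9.14% to 12.7% in the centre. For peaks narrower than 1 kb the central window reaches past the peak.

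The number of factors per domain was lower after EP400 siRNA. None of MED26, Pol II, H3.3 and H2AZ was present in 510 domains (28.4%) after EP400 siRNA and in 148 (8.24%) after mock siRNA. All 4 were present in 18 domains (1.002%) after EP400 siRNA and in 299 (16.6%) after mock siRNA, close to the 0.72% and 15.5% of peaks of 2000 to 2900 bp, while peaks under 3000 bp had 0.11% after EP400 siRNA and 5.66% after mock siRNA. Peaks of 2000 to 2900 bp held none in 44.8% after EP400 siRNA and in 17.3% after mock siRNA.

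The domains were also split into 4 classes of equal size by the number of gene loci within 500 kb. In mock cells H3.3 stood in 60.1% of domains in the gene-poorest class and in 88.0% in the gene-richest. The bases covered after EP400 siRNA over those after mock siRNA were 0.20, 0.11, 0.09 and 0.07 for H3.3 from the gene-poorest to the gene-richest class. MED26 had no such order, with 0.70, 0.72, 0.66 and 0.72.

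Among the 20 widest domains, 11 lay between gene loci. The widest, 17200 bp at chr10:80903901-80921100, lay inside ZMIZ1, which encodes a coactivator of the PIAS-like family. It held Pol II over 400 bp after EP400 siRNA and 9400 bp after mock siRNA, H3.3 over 0 bp and 3000 bp, and MED26 over 3000 bp and 4100 bp. A domain of the same width at chr2:37993301-38010500 held no Pol II in either condition and MED26 over 200 bp and 1000 bp. The domain near LIF, a cytokine of the interleukin 6 family, spanned 13500 bp and held MED26 over 3700 bp and 5000 bp, and Pol II over 0 bp and 2400 bp. The domain in GLI2, a Hedgehog pathway transcription factor, spanned 11400 bp and held H3.3 over 0 bp and 3500 bp.

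Width did not always come with these factors. The domain of 12600 bp in PALLD, which encodes the actin-binding protein palladin, and that of 11400 bp at BBOX1, an enzyme of carnitine synthesis, overlapped no peak of MED26, Pol II or H3.3 in either condition. H3K4me1 covered 1600 bp and 2000 bp of them. BBOX1 RNA was listed at 0 FPKM in both libraries, and PALLD RNA stood at 8.56 FPKM after EP400 siRNA and 26.8 FPKM after mock siRNA.

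**Figure D4:**
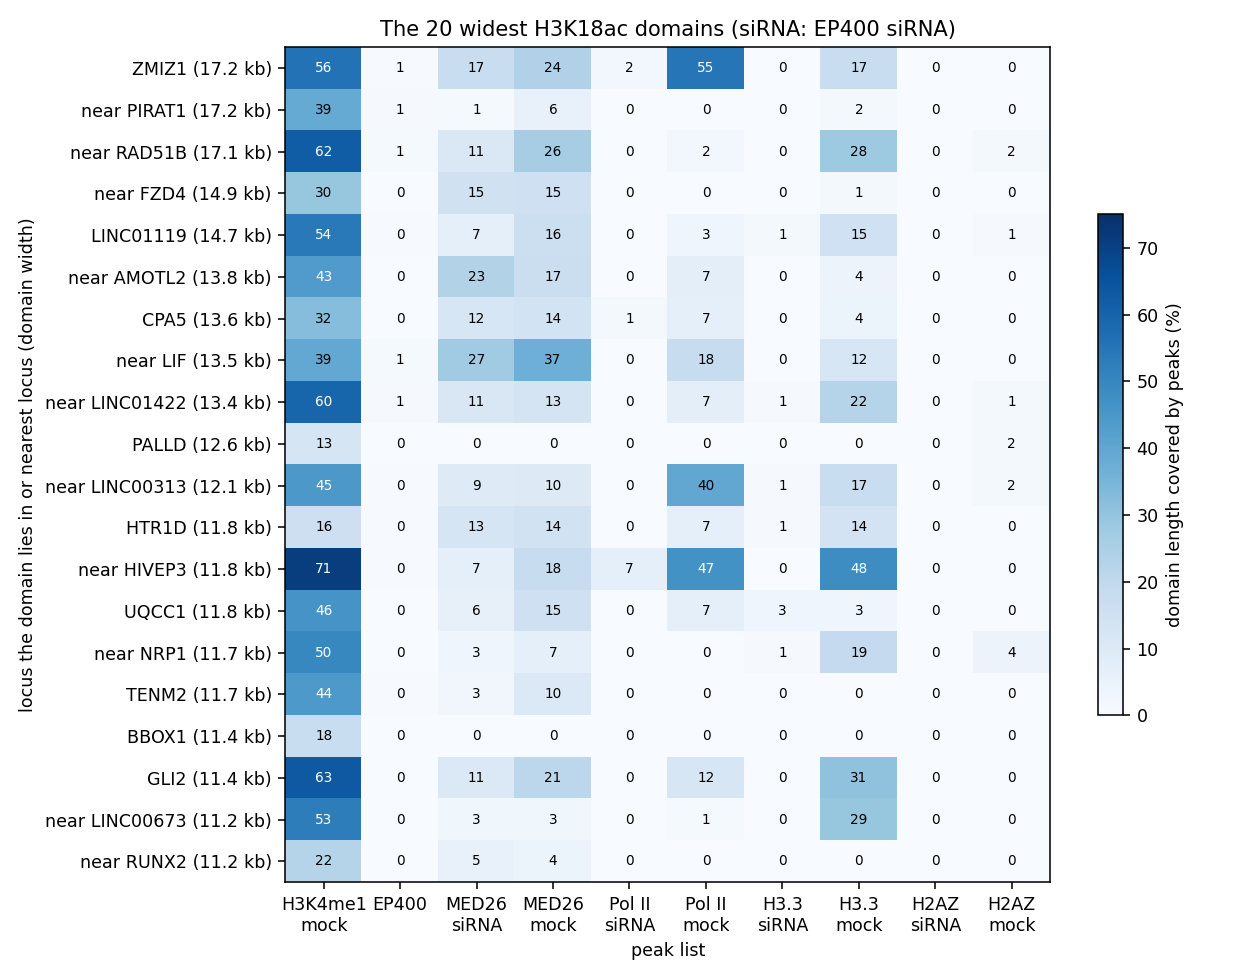
Share of the length of each of the 20 widest domains (rows, named by the locus they lie in or nearest to, with width) that is covered by each peak list (columns, %, darker is higher). H3K4me1 is present in all 20, H3.3 covers little after EP400 siRNA in any of them, and PALLD and BBOX1 lack MED26, Pol II and H3.3.

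EP400 RNA, which the siRNA targets, was at 2.28 FPKM after EP400 siRNA and 10.04 FPKM after mock siRNA, which is 22.8% of the mock level. FPKM is the number of fragments scaled to transcript length and library size, and log2 ratios are EP400 siRNA over mock siRNA after adding 1 FPKM to each. In such bulk libraries fewer cells of a type and less RNA per cell cannot be told apart. Of the markers of the line, VIM stood at 1132 and 618 FPKM after EP400 and mock siRNA, SPARC at 179 and 229, and COL1A1 at 60.8 and 376, while COL1A2 was near 0 and TWIST1 was listed at 0. The epithelial genes KRT8 (115 and 369 FPKM) and KRT18 (316 and 519 FPKM), which share a locus, were expressed too, with EPCAM and CDH1 below 1 FPKM. The 3 neural markers summed to 73.9 FPKM after EP400 siRNA and 198 FPKM after mock siRNA, most of it TUBB3, a beta-tubulin (66.3 and 186 FPKM). The 4 blood markers summed to 0.0776 and 0.0234 FPKM and the 3 endothelial markers to 0.108 and 0.128 FPKM.

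Genes with an end at a domain were lower after EP400 siRNA than genes as a whole. Of 425 such genes in the table, 5 had a failed estimate and 299 (2.56% of measured genes) had a mean of 1 FPKM or more and were analysed. Their median level was 10.9 FPKM after EP400 siRNA and 19.9 FPKM after mock siRNA, and their median log2 ratio was -0.69, against -0.20 over all 11671 measured genes. Of the 299, 108 (36.1%) were lower by 2-fold or more, against 22.9% of all measured genes, and 14 (4.68%) were higher, against 6.11%. Genes whose ends met narrower H3K18ac peaks only had a median of -0.21 (8409 genes), and those with no H3K18ac peak at an end had -0.11 (2963 genes).

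The size of these numbers depended on scaling. Rescaling multiplies every gene of a library by the same factor. Apart from the added 1 FPKM it shifts all log2 ratios alike, so it cannot test the order of the groups. With FPKM rescaled to the same sum in both libraries (TPM), the median of all measured genes was 0.48, a shift of 0.68, and that of genes at domains was -0.02, a difference of -0.50 against -0.49 before. The calls then turned to 42 lower and 49 higher at domains. Lower calls made up 14.05% of genes at domains, against 5.97% of all measured genes, and higher calls 16.4%, against 31.5%. Because loci can hold several genes, genes alone in their locus were also taken, with a median of -0.75 for 208 genes at domains and -0.15 for all 8438.

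Highly expressed genes and genes in dense regions had low ratios in general. Within quintiles of mean FPKM, genes at domains and other genes had medians of -0.10 and 0.21 in the lowest, -0.32 and 0.18 in the second, -0.72 and -0.06 in the middle, -0.86 and -0.54 in the fourth and -0.99 and -0.93 in the highest. Within quintiles of gene density, the gap ran from -0.29 against 0.32 in the sparsest to -1.02 against -0.98 in the densest. Genes at domains were lower in all 5 classes of each split, by little in the top class.

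**Figure D5:**
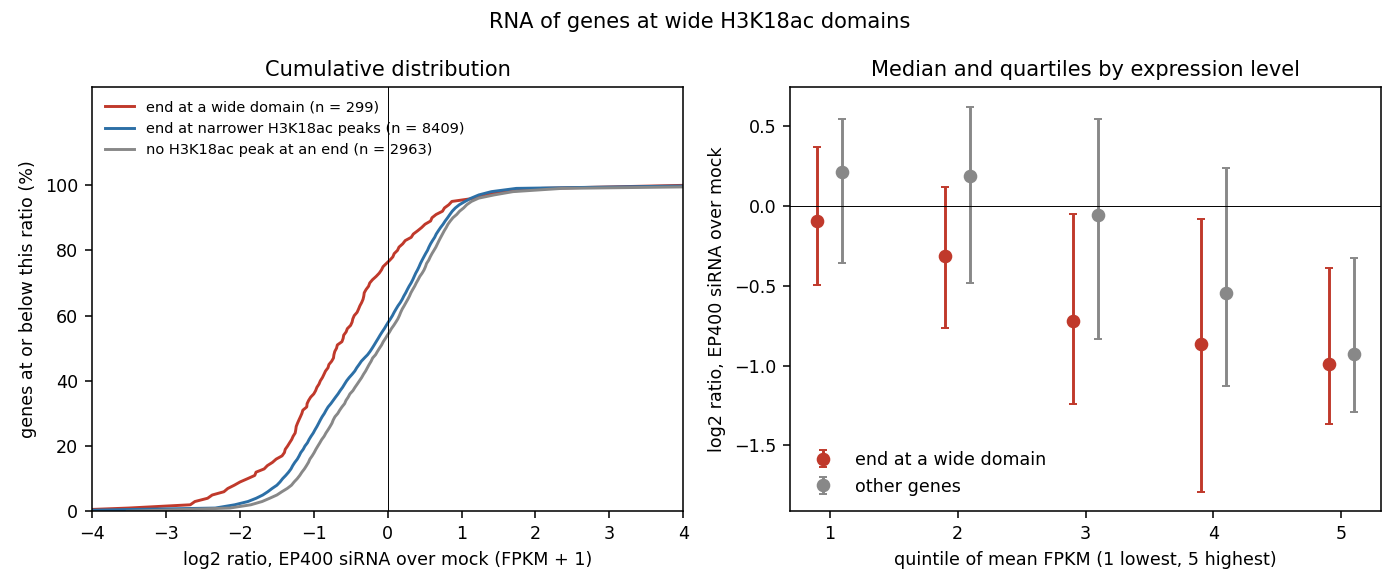
Left: cumulative share of genes (%) by log2 ratio of FPKM + 1, EP400 siRNA over mock siRNA, for genes with an end at a domain (red), at narrower H3K18ac peaks only (blue) and at none (grey). Right: median and quartiles of the log2 ratio by quintile of mean FPKM, where genes at domains lie below other genes in each quintile, by least in the highest (-0.99 and -0.93).

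RNA ratios were also compared by what the domain carried. The 202 genes whose domain had H3.3 in mock cells alone had a median of -0.80, the 57 whose domain kept H3.3 had -0.36, and the 32 without H3.3 in either condition had -0.34. Genes whose domain kept Pol II had -0.81 (194 genes), those with Pol II in mock cells alone -0.50 (69), and those without it -0.29 (36). These classes also differ in RNA level, with median mock FPKM of 21.8, 28.5 and 5.28 for the H3.3 classes and 32.6, 10.2 and 4.57 for Pol II. Genes whose domain held an EP400 peak had a median of -0.72 (142 genes), against -0.63 for those without one (157 genes). For H2AZ the medians were close together, at -0.70 where it was kept (61 genes), -0.66 where it was in mock cells alone (100) and -0.72 where it was in neither condition (137). For MED26 they were -0.72 where it was kept (265 genes), -0.08 in mock cells alone (14) and 0.0019 in neither (15).

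A domain anywhere in the locus was found for 1102 genes, 4.55% of the table, and the 664 measured had a median of -0.52. Those with 1 domain had -0.57 (538), those with 2 had -0.55 (81) and those with 3 or more had -0.05 (45). The last set lies in long loci, with a median of 301842 bp. KCNMA1, with 6 domains, stood at 25.4 FPKM after EP400 siRNA and 22.8 FPKM after mock siRNA, and TENM2, also with 6, at 7.23 and 22.1 FPKM.

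A domain covered 15 genes from end to end, and 12 of these were measured. All 12 had a log2 ratio below 0, with a median of -1.16, 9 were lower by 2-fold or more, against 22.9% of all measured genes, and 0 were higher. As TPM, 9 of the 12 were below 0, with a median of -0.47, and 3 were lower by 2-fold or more, against 5.97% of all measured genes. SFN stood at 194 FPKM after EP400 siRNA and 1015 FPKM after mock siRNA, a log2 ratio of -2.38, in a domain at chr1:27187501-27191500 where Pol II covered 1500 and 2300 bp and H3.3 0 and 1500 bp. S100A6 stood at 490 and 1169 FPKM (-1.25), and its domain held Pol II over 500 and 2600 bp. ID1 stood at 194 and 435 FPKM (-1.16) in a domain of 7600 bp with H3.3 over 500 and 3200 bp. H1-2, whose domain carried H3.3 in neither condition, stood at 75.3 and 178 FPKM (-1.23). TNFRSF12A, the receptor of the cytokine TWEAK, stood at 398 and 604 FPKM (-0.60, and 0.17 as TPM). HSD17B8, a steroid dehydrogenase, stood at 6.50 and 28.8 FPKM (-1.99). The confidence limits, here and below summed over the transcript rows of a gene, were wide, at 6.11 to 382 FPKM and 0 to 2128 FPKM for SFN.

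Among genes at a domain with a mean of 5 FPKM or more, the lowest ratio was that of EDN2, which encodes the vasoactive peptide endothelin 2. It stood at 0.768 FPKM after EP400 siRNA (limits 0.0573 to 1.48) and 44.0 FPKM after mock siRNA (5.06 to 83.04), a log2 ratio of -4.67. Its domain at chr1:41948401-41954700 held H3.3 over 200 and 2500 bp and Pol II over 500 and 2600 bp. PDLIM1, an adaptor of actin stress fibres, stood at 1.14 FPKM (0.0792 to 2.20) and 23.3 FPKM (2.89 to 43.6), and CSDC2, an RNA-binding protein, at 6.78 and 105 FPKM. LAMA5, a laminin chain, stood at 3.07 and 24.2 FPKM, and LOXL4, a collagen cross-linking oxidase, at 6.84 and 47.3 FPKM. WFDC21P stood at 2.61 FPKM (0.192 to 5.03) and 55.2 FPKM (7.05 to 103.3). Among the 8 lowest ratios, the limits of the 2 libraries did not overlap for EDN2, WFDC21P and PDLIM1. How many of all measured genes have such limits was not counted.

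The highest ratio was that of IL24, a cytokine of the interleukin 10 family, at 34.0 FPKM after EP400 siRNA (limits 0 to 96.3) and 0.984 FPKM after mock siRNA (0 to 5.005), a log2 ratio of 4.14. Its domain of 3600 bp carried H3K4me1 and EP400 and none of MED26, Pol II, H3.3 or H2AZ in either condition. SLC20A1, a phosphate transporter, stood at 132 and 21.8 FPKM (2.55), TM4SF1, a membrane protein of the tetraspanin-like family, at 101.4 and 19.9 FPKM (2.29), and PLAU, the urokinase protease, at 166 and 38.4 FPKM (2.08). The domain near PLAU, at chr10:75664901-75668400, lay outside the locus, which starts at 75669727 and holds 2 genes. This domain held Pol II over 0 and 400 bp and H3.3 over 0 and 800 bp, and PLAU RNA was higher after EP400 siRNA.

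The most abundant RNAs of genes at domains included those of glycolysis and the cytoskeleton. GAPDH stood at 5541 FPKM after EP400 siRNA and 12383 FPKM after mock siRNA, the glycolytic enzyme ENO1 at 2007 and 3486, the metal-binding MT2A at 2516 and 3179, the actin gene ACTG1 at 1216 and 2248, and the actin-binding PFN1 at 593 and 1266. As TPM their log2 ratios were -0.39, -0.02, 0.43, -0.11 and -0.32 in this order, against a median of 0.48 over all measured genes. The limits for GAPDH were 0 to 26395 FPKM after EP400 siRNA and 0 to 111079 FPKM after mock siRNA. The GAPDH domain held EP400 over 1200 of its 4200 bp, no H3K4me1, and H3.3 over 0 bp after EP400 siRNA and 1900 bp after mock siRNA. Pol II covered 2400 and 3600 bp of it. The ACTG1 domain kept Pol II over 3200 of 3300 bp. Among the 8 genes with the highest mock FPKM, the domains of ACTG1, PFN1, ENO1, GAPDH and PSMB3 held 0 bp of H3K4me1. Those of MT2A, S100A6 and SFN held 300, 600 and 1200 bp. All of these domains lay on gene ends, where the mark was less frequent than the 94.6% over all domains.

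By function, the share of genes with a domain differed between gene lists. Over all genes of the RNA data, 4.80% had a domain at an end or in the locus. The lists were chosen for this tissue with earlier results known, and their genes were not matched to the table in locus length or RNA level. Of 29 actin and contractile genes, 8 had one. MYH9, the heavy chain of non-muscle myosin, stood at 111 FPKM after EP400 siRNA and 232 FPKM after mock siRNA, with a domain of 7900 bp whose H3.3 covered 100 and 2800 bp. ACTN4, an alpha-actinin, stood at 97.3 FPKM after EP400 siRNA and 195 FPKM after mock siRNA. PXN, the focal adhesion protein paxillin, stood at 76.0 FPKM after EP400 siRNA and 102 FPKM after mock siRNA. Of the 7 measured, 3 (MYH9, PFN1 and PDLIM7) were lower by 2-fold or more, against 22.9% of all measured genes, and 0 were higher; as TPM 0 of the 7 were past 2-fold, and PXN was above 0 (0.34). The 7 had a median of -0.99, which is close to that of the whole list (-0.98).

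Of 27 osteoblast and mesenchymal regulators, 6 had a domain, and 5 of these were measured. Of the 5, ID1, ID3, SMAD6 and BMP4 were lower by 2-fold or more, a count of 4 beside 22.9% of all measured genes, with a median of -1.31 against -0.06 for the whole list. As TPM 2 of the 4 calls were left, SMAD6 and BMP4, with ID1 at -0.39 and ID3 at -0.54. ID3, another inhibitor of basic helix-loop-helix factors, stood at 102 FPKM after EP400 siRNA and 255 FPKM after mock siRNA, and its domain held H3.3 over 100 and 2300 bp. SMAD6, an inhibitory SMAD of bone morphogenetic protein signalling, stood at 1.71 FPKM after EP400 siRNA and 12.5 FPKM after mock siRNA. SMAD3, which transmits TGF-beta signals, had a domain and a failed estimate, so that no value is given. RUNX2, the master regulator of osteoblasts, had a domain at an end or in its locus and stood at 0.697 and 1.51 FPKM.

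Of 20 target genes of YAP/TEAD and SRF, 5 had a domain. AJUBA, a LIM-domain scaffold of cell junctions, stood at 17.9 and 78.6 FPKM, and CCN1, a matricellular protein, at 182 and 162 FPKM. AXL, a receptor tyrosine kinase, stood at 108 and 150 FPKM, with a domain of 9800 bp that held Pol II over 800 and 5900 bp. Of 25 cytokine and NF-kB genes, 4 had one, among them LIF at 26.1 and 56.1 FPKM and the chemokine CCL2 at 32.2 and 18.9 FPKM.

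Of 26 MYC and growth regulators, 5 had a domain, all measured. HMGA2, EGFR and MCL1 were higher by 2-fold or more, a count of 3 beside 6.11% of all measured genes, and 0 were lower, with a median of 1.06 against 0.40 for the whole list. As TPM 4 of the 5 were higher by 2-fold or more, against 31.5% of all measured genes. HMGA2, an architectural chromatin protein, stood at 44.9 FPKM after EP400 siRNA and 8.27 FPKM after mock siRNA, and the receptor EGFR at 4.07 FPKM after EP400 siRNA and 1.43 FPKM after mock siRNA. CDK6, a cell cycle kinase, stood just under the 2-fold call (log2 ratio 0.95) at 4.22 and 1.69 FPKM. BCL2L1, an inhibitor of apoptosis, stood at 156 FPKM after EP400 siRNA and 173 FPKM after mock siRNA (-0.15). The domain in HMGA2 held MED26 over 2800 and 2700 bp and Pol II over 2200 and 2600 bp.

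Of 24 replication-dependent histone genes, 5 had a domain, of which 2 were measured. Of 30 matrix genes, 5 had one: COL1A1, the main collagen of bone, was at 60.8 and 376 FPKM (log2 ratio -2.61), and TGFBI, a TGF-beta-induced matrix protein, at 151 and 46.0 FPKM (1.69). Of 17 nuclear and host noncoding RNA genes, 3 had one, with NEAT1 at 56.2 and 36.8 FPKM and VMP1 at 42.9 and 23.7 FPKM. Of 26 AP-1 and immediate-early genes, 2 had one, DUSP1 at 46.2 and 74.6 FPKM and FOSL2 at 45.3 and 65.4 FPKM.

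No domain was found at 46 ribosomal protein genes, 27 splicing factor genes, 25 heat shock and unfolded protein genes, 24 interferon response genes or 27 HOX genes, most of which were expressed. At gene ends, where the share over the table was 1.76%, 0 of 46 ribosomal protein genes has an interval of 0 to 7.71%, so these counts do not set the lists apart from the background. Of 12 epithelial markers, 3 had a domain, namely KRT8, KRT18 and CLDN4, and CLDN4, a claudin of tight junctions, stood at 10.9 and 63.4 FPKM. Of 8 endothelial markers, 3 had a domain inside the locus, VWF, CDH5 and TEK, and their RNA was at or below 0.312 FPKM in both libraries. Of 12 blood markers 1 had a domain (CD34, at 1.80 and 4.02 FPKM), and of 10 neural markers 1 (RBFOX3, at 6.32 and 11.2 FPKM).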

How the data were processed

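The 19 samples of U2OS cells were grouped by their titles. Each ChIP file was deposited by the authors as a bare list of intervals, without a score, signal or coverage value, so depth is unknown. The 4 inputs were not analysed here. The RNA table holds FPKM with confidence limits, deposited by the authors for 48669 transcript rows, per the file headers. The submitters' processing notes name hg19, Cuffdiff 2.0.2, TopHat2 2.0.8 and Bowtie 0.12.9, and the peak caller is not given in the sources used here. Coordinates are hg19, counted from 1. Chromosome 23 of the lists was read as X, since its coordinates run past the end of Y.

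Overlap means 1 bp or more. The central 1 kb was taken around the middle of every peak, also of peaks narrower than 1 kb. Loci come from the RNA table and are clusters of overlapping transcripts, so neighbouring and antisense genes cannot be told apart. Rows under 200 nt (2116) were left out, and FPKM and their confidence limits were summed per gene. For a gene with several rows the summed limits are not limits that the authors gave for that gene. Symbols came from a RefSeq GRCh38.p14 table used for names and sequences alone (97.7% of rows matched). A failed estimate removed 122 of 24198 genes. A gene was called at 2-fold or more on the log2(FPKM + 1) scale, which understates differences of low genes. No test was run, with 1 library per condition. Python 3.11.15, pandas 2.3.3, numpy 2.4.6 and scipy 1.17.1 were used, and the overlap and interval code was tested on simulated data.

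The domains and the 18 gene lists (415 of 420 entries in the table) were chosen with earlier results of these data known. Genes were named by rule: those of the 20 widest domains, of the 6 domains with most EP400 peaks and of the 6 loci with most domains, the 8 highest and 8 lowest log2 ratios at a mean of 5 FPKM or more, the 8 highest mock FPKM, and up to 4 members per list. Genes wholly inside a domain, and the cell type markers, were added to these. MCL1, BMP4 and PDLIM7, which complete short counts, were named after their values were seen. Alternatives covered the width threshold, joining of neighbours, overlap, list size, gene ends, the filter, the pseudocount and scaling.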

Additional observations from a re-analysis of the deposited data

How the results depend on the processing

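No paired analysis was possible because each condition had 1 library per antibody. The number of domains (1796, with 21.1% of the H3K18ac length) became 4159 (35.3%) at a threshold of 2000 bp, 951 (13.8%) at 4000 bp and 3224 (34.8%) with neighbours joined over gaps of 500 bp or less. Gene ends held 15.0% of domains with ends of 1 kb and 23.6% with ends of 5 kb, against 17.2%. Over all alternatives, the share of domains with a factor ran from 75.4 to 97.4% for H3K4me1, 7.13 to 31.7% for EP400, and, for EP400 siRNA and then mock siRNA, 37.4 to 67.9% and 47.6 to 77.8% for MED26, 11.2 to 19.9% and 29.8 to 52.9% for Pol II, 7.29 to 27.9% and 42.0 to 78.8% for H3.3, and 2.39 to 12.1% and 15.0 to 39.4% for H2AZ.

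A single signed or plain value in parentheses after a share kept is the share kept after EP400 siRNA in domains minus that in narrower peaks, in percentage points. Over all places and all narrower peaks, this difference turned sign in the central 1 kb for MED26, kept at 70.3% (-6.23), and H3.3, kept at 9.14% (-2.99), but not for MED26 inside loci (67.8% of domains, 61.8% of narrower peaks) or between them (65.9% and 51.8%), nor for H3.3 on gene ends (12.6% and 7.35%); the differences for Pol II and H2AZ were -40.3 and -33.4 there, and H2AZ was kept at 13.7%. With the lists of both conditions cut to the same number of widest peaks, MED26 was kept at 80.8%, Pol II at 45.0% (-28.4) and H2AZ at 34.5%. With an overlap of 200 bp or more, H3.3 was kept at 17.6% (11.0) and H2AZ at 15.9%. At 2000 bp the shares kept were 74.9% for MED26 (5.14), 44.7% for Pol II (-25.7), 22.96% for H3.3 (13.9) and 27.7% for H2AZ (-17.2). At 4000 bp they were 82.6% for MED26 (12.6), 31.6% for Pol II (-37.1) and 29.9% for H3.3. H2AZ covered 0.992% of the length at 2000 bp after EP400 siRNA and 4.61% after mock siRNA, and its covered share over that of the flanks after EP400 siRNA was 6.55 at 2000 bp and 1.94 at 4000 bp. Flank ratios were added after the data were seen; for H3.3 they stayed between 1.01 and 1.10 after EP400 siRNA and between 1.80 and 2.02 after mock siRNA.

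The median log2 ratio of genes at domains was -0.38 with no filter, -0.91 at 5 FPKM or more (difference from all genes -0.33, 9 genes higher), -0.49 after centring, -0.025 as TPM (42 lower, 49 higher) and -0.52 over all loci with a domain (-0.32, 195 lower, 54 higher). At 2000 bp 270 genes were lower (35.8%) and 45 higher (5.97%), and at 4000 bp 66 (41.8%) and 5 (3.16%). The shares over all measured genes were 22.9% lower and 6.11% higher. As TPM they were 5.97% lower and 31.5% higher, against 14.05% and 16.4% of genes at domains. The lists had 46 entries with a domain anywhere in the locus and 78 at ends at 2000 bp, against 30. The 2-fold calls as TPM of genes wholly inside a domain and of gene lists were added after the data were seen. The cause of these shifts was not tested. Depth is unknown for every list, so a missing peak is not shown to be missing binding.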
